A study of Mus musculus with 11 samples.

Results

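The genes described here encode the proteasome and the factors that start translation. They are the protein-coding genes of chromosomes 1 to 19 in the mouse annotation (GENCODE vM1, genome build mm9) whose symbols begin with Psma, Psmb, Psmc, Psmd or Psme, or with Eif followed by a digit. The rule itself uses no measured value. This gave 99 of 21281 genes, 44 proteasome genes and 55 Eif genes, and both groups were kept apart throughout. Members on the X and Y chromosomes were outside the rule.

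The proteasome is the barrel-shaped protease that degrades ubiquitin-tagged proteins. Its outer rings are built from alpha subunits (Psma) and its inner rings from beta subunits (Psmb), among which Psmb5, Psmb6 and Psmb7 carry the catalytic sites. Psmb8, Psmb9 and Psmb10 replace these catalytic subunits in immune and cytokine-treated cells, Psmb11 does so in the thymic cortex, and Psma8 is a testis form. A cap made of ATPases (Psmc) and non-ATPase subunits (Psmd) recognizes, unfolds and admits the substrate, and Psme proteins are alternative activators. Eukaryotic initiation factors load the initiator tRNA onto the small ribosomal subunit (eIF2), hold the initiating complex together (eIF3), bind and unwind the mRNA cap region (eIF4) and join the subunits (eIF5). Both machines are needed in nearly every cell, so most of these genes are classed as housekeeping genes. The rule works by symbol, and some symbols do not name such a subunit or factor. The 4 Eif2c genes encode the Argonaute proteins of RNA silencing, the 4 Eif2ak genes the stress kinases that phosphorylate eIF2 alpha, and Eif4ebp genes the repressors of the cap-binding protein. Psmc3ip is a meiotic recombination factor, and Psme2b-ps is an intronless copy of Psme2 that this annotation lists as protein-coding.

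Chromatin immunoprecipitation sequencing (ChIP-Seq) was done on mouse KH2 embryonic stem (ES) cells and on mouse embryonic fibroblasts (MEFs) of a mixed 129 and C57bl/6 background. In the inducible lines a doxycycline-responsive transactivator (M2rtTA) sits at ROSA26, and HA-tagged H3.3 or HA-tagged MacroH2A2 (HA-Macro) sits under a tet operator downstream of Col1a1, so that doxycycline (Dox, 2 µg/mL) switches on the tagged histone and its arrival in chromatin can be followed over time. H3.3 is the replacement form of histone H3 that is laid down outside replication, and MacroH2A2 is an H2A variant with a large globular domain that is often found in silent chromatin. The 11 libraries were anti-HA from HA-H3.3 ES cells after 3 and 6 h of Dox, anti-HA from HA-Macro ES cells that had no Dox or had it for 3, 6 or 12 h, anti-HA from HA-Macro MEFs that had it for 3, 6 or 12 h, and an antibody against MacroH2A2 itself on cells that the labels give as parental KH2 ES cells and wild-type MEFs without treatment. For this antibody the study's figure legends instead name HA-Macro ES cells and HA-Macro MEFs, with and without Dox, so these libraries are described here only by antibody and cell type, and some of the MacroH2A2 read in them may be tagged. ES cells were grown on feeder fibroblasts that were depleted by pre-plating before induction, so some feeder chromatin could remain. The HA-Macro MEFs came from chimeric embryos by drug selection against host cells and were used at an early passage.

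Each condition was 1 library. By their labels both anti-MacroH2A2 libraries combine 2 replicates, which cannot be separated in the files. No difference below could therefore be set against a spread between replicates and no test was made. The intervals given are 95% intervals (exact, from the read counts) that cover counting error only. A promoter level is the number of mapped fragment midpoints within 600 bp on either side of the transcription start site (TSS), in parts per 1000000 mapped midpoints (p.p.m.). Every window has the same length, so gene length does not enter. None of the 11 libraries was input chromatin, however, so differences in mappability and base composition between genes remain in the levels. Rankings of genes by level are therefore descriptions. Since levels are shares of a library, they give no absolute amount of a histone, and a level can be lower because more of the library lies elsewhere. Libraries held 6488112 to 20541627 mapped intervals. The HA-Macro ES 3 h library stood apart from the other ES libraries of the same line in its share of reads on chromosome Y, 0.130% against 0.0303 to 0.0382%. The HA-H3.3 ES libraries had 0.107% and 0.0709%, the anti-MacroH2A2 ES library 0.106% and the MEF libraries 0.0240 to 0.0446%. Which of the HA-Macro ES libraries is the unusual one therefore cannot be told. The pooled promoter and gene body ratios, the counts of members and the subgroup values that set 12 h against the 3 h library are also given against the 6 h library, while single members are given with their level at every time. The deposited data of the HA-Macro ES library without Dox carry a name that mentions Dox with no time, whereas the label gives no treatment, and the label was followed. Cell type could not be checked by expression. As a promoter measurement, the 7 fibroblast marker genes together had 1.04 p.p.m. of anti-MacroH2A2 signal per promoter in ES cells and 0.336 in MEFs, while the 7 ES cell marker genes had 0.920 in ES cells and 1.08 in MEFs.

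The promoters themselves were mostly of the CpG-rich kind. Over the 250 bases before the TSS the observed-over-expected CpG ratio had a median of 0.73 in the proteasome genes and 0.82 in the Eif genes, against 0.51 over all 21276 promoters that could be read. A ratio of 0.6 or more was found at 32 of 44 proteasome promoters (72.7%) and 46 of 55 Eif promoters (83.6%), against 42.8% of all promoters. The GC box word GGGCGG, the core bound by Sp1-type factors, stood on either strand in 56.8% of proteasome, 72.7% of Eif and 39.9% of all promoters. The ETS word CCGGAAG stood in 25.0%, 21.8% and 8.36% in the same order, and the E-box CACGTG in 13.6%, 10.9% and 6.53%. By contrast TATAAA was found in 11.4% of proteasome and 3.64% of Eif promoters against 12.4% of all, and CCAAT in 43.2%, 32.7% and 34.7%. The antioxidant response element core TGACNNNGC, known from the factors that raise proteasome genes under stress, was found in 13.6% of proteasome, 9.09% of Eif and 10.1% of all promoters. The remaining words searched were rare: GCGCATGCG in 2.27%, 3.64% and 1.72%, AAGATGGCG in 2.27%, 0% and 0.653%, and TCTCGCGAG in 4.55%, 0% and 0.667%. Each word was searched on both strands, CpG-rich sequence makes GC-rich words more frequent, and a match is a description of letters, not of a bound site.

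The following promoters (mm9, 250 bases ending just before the TSS, written 5′ to 3′ on the gene's strand) are those of the members that the results below turn on. Capitals mark the GC box, ETS, CCAAT and other words searched, in either orientation. Psmb11, at chr14:55243897-55244146 (plus strand), had the highest MacroH2A2 level of all 44 proteasome promoters in both cell types. Its CpG ratio was 0.20.
Psmb11: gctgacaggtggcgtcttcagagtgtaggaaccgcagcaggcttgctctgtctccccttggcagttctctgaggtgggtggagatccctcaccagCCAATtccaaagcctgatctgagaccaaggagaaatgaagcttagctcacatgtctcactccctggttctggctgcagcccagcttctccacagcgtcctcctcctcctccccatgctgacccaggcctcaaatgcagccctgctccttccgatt
Psma7, at chr2:179777139-179777388 (minus strand), and Psme4, at chr11:30671476-30671725 (plus strand), carried the highest HA-H3.3 levels at 6 h among the proteasome genes, with CpG ratios of 0.95 and 0.70.
Psma7: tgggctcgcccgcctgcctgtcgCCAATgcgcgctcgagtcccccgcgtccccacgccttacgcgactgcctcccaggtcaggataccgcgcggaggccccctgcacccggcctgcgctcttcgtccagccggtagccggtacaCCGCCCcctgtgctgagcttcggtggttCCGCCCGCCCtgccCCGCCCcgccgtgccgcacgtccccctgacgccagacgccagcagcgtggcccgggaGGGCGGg
Psme4: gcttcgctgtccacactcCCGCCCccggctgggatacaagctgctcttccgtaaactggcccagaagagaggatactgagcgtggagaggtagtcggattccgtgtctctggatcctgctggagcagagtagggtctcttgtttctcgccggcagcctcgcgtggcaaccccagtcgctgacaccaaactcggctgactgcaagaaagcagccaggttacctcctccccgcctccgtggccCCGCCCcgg
Eif2c3, at chr4:126106801-126107050 (minus strand), carried the highest HA-H3.3 level at 6 h of the Eif genes, with a CpG ratio of 0.80.
Eif2c3: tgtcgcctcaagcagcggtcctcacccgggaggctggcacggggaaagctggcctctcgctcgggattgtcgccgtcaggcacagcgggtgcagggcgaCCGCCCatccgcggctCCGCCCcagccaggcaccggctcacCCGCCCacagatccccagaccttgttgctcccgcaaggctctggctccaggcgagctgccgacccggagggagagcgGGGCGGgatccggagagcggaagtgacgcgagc
Psmc3ip, at chr11:100956751-100957000 (minus strand), and Eif3l, at chr15:78905403-78905652 (plus strand), had the lowest HA-Macro ratios of 12 over 3 h in ES cells in their groups, and their CpG ratios were 0.79 and 0.76.
Psmc3ip: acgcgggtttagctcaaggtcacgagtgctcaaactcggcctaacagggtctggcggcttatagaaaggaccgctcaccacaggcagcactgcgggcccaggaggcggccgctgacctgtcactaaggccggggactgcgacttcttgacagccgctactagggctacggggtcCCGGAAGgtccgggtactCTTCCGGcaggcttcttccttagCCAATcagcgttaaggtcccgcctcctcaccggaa
Eif3l: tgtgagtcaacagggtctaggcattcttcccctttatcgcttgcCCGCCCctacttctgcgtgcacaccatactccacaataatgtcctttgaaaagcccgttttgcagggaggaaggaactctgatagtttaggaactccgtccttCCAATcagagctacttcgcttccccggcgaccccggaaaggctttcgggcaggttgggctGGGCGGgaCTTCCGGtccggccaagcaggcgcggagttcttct
Psmb11 thus had 1 CCAAT box and no GC box, Psma7 had 5 GC boxes, and Eif2c3 had 4.

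Within ES cells the tagged MacroH2A2 was high at these promoters early and lower later. Without Dox the mean level per promoter was 0.618 p.p.m. (interval 0.554 to 0.688, 341 reads over 44 promoters) for the proteasome genes. It was 1.45 p.p.m. (1.37 to 1.54, 1113 reads) at 3 h, 0.966 (0.899 to 1.04, 753 reads) at 6 h and 0.698 (0.642 to 0.757, 578 reads) at 12 h. For the 55 Eif promoters the means were 0.692 p.p.m. (0.631 to 0.757) without Dox, 1.73 (1.65 to 1.81) at 3 h, 1.08 (1.02 to 1.15) at 6 h and 0.773 (0.720 to 0.828) at 12 h. Both groups were thus highest at 3 h and came back at 12 h to shares of the library close to those without Dox. In the library without Dox the unspecific signal of the antibody and any tagged histone made without induction cannot be told apart. At 3 h, 86.4% of proteasome and 90.9% of Eif promoters lay above the median of all genes, which was 0.862 p.p.m., and at 12 h 56.8% and 63.6% lay above a median of 0.584.

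**Figure D1:**
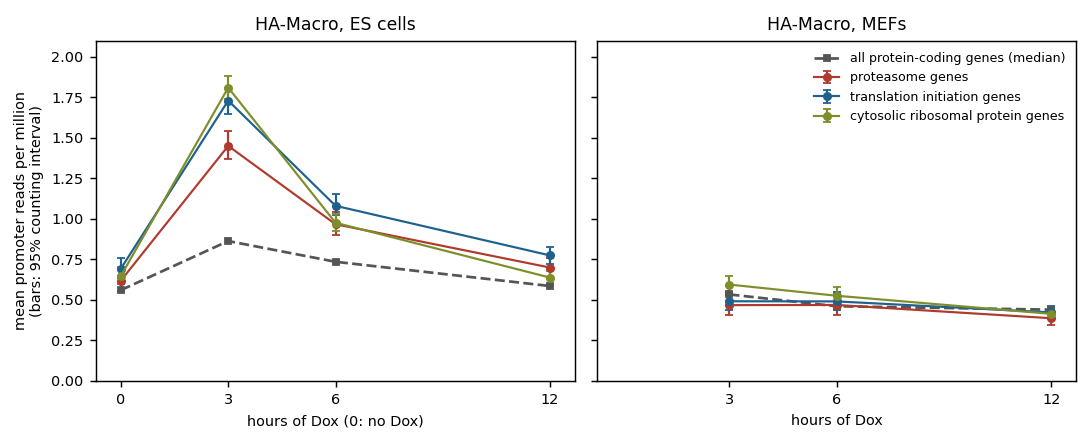
Mean HA-Macro level per promoter (p.p.m., within 600 bp of the TSS) against hours of Dox in ES cells and MEFs for the proteasome, Eif and cytosolic ribosomal protein genes, with the median of all genes dashed, the library without Dox at 0 h and bars giving the 95% counting interval. In ES cells the proteasome and Eif genes are highest at 3 h (1.45 and 1.73 p.p.m.) and lowest without Dox, whereas in MEFs they stay between 0.385 and 0.490 p.p.m.

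Set against the 3 h library, the 12 h library was lower by 1.06 on the log2 scale for the pooled proteasome promoters (12 over 3 h, log2 -1.06, interval -1.21 to -0.91) and by 1.16 for the Eif promoters (log2 -1.16, -1.29 to -1.04). The median over all genes was also below 0, at -0.50. With 1 read added to each count, 24 of 44 proteasome promoters (54.5%) and 37 of 55 Eif promoters (67.3%) were lower by 2-fold or more, and 27.5% of all genes were. No member was higher by 2-fold or more, where 5.10% of all genes were. In all, 43 of 44 and 53 of 55 members had a value below 0, Psmb8, Eif4e1b and Eif4e3 being the exceptions. Most of all genes were below 0 as well, since their median was -0.50. Of the 99 members, 42 of 44 and 52 of 55 had at least 20 reads over both libraries. Cytosolic ribosomal protein genes, the other large housekeeping group of translation, had a pooled log2 of -1.51, and olfactory receptor genes, most of which are known to be used only in olfactory neurons, 0.21.

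The size of this difference depended on which early library was used. Against 6 h, the 12 h library was lower by less, with a pooled log2 of -0.47 (-0.63 to -0.31) for proteasome and -0.49 (-0.62 to -0.35) for Eif promoters, and a median of -0.26 over all genes. The ribosomal protein and olfactory receptor genes then had -0.62 and 0.08. By the 2-fold rule 10 of 44 proteasome and 7 of 55 Eif promoters were then lower, where 10.6% of all genes were, and 0 and 1 were higher, where 3.43% of all genes were. The Eif gene that was higher was Eif4g3, a cap complex scaffold (15 against 6 reads), named after its value was seen. The Eif share that was lower was thus near that of all genes. A value below 0 was found at 32 of 44 proteasome and 49 of 55 Eif promoters, where 65.9% of all genes had one. Against the library without Dox, the 3 h library had a log2 of 1.23 (1.06 to 1.41) and 1.32 (1.17 to 1.47), the 6 h library 0.64 (0.46 to 0.83) and 0.65 (0.49 to 0.80), and the 12 h library 0.17 (-0.02 to 0.37) and 0.16 (-0.01 to 0.33). These pairs share libraries and are not independent of each other. The part that the chromosome Y share of the 3 h library has in these values was not tested.

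Among the parts of the proteasome, the 13 regulatory non-ATPase genes (Psmd) had a pooled log2 of -1.26 (12 over 3 h in ES cells, -1.54 to -0.99), with 9 of 13 lower by 2-fold or more, where 27.5% of all genes were. The constitutive beta ring had -1.19 (4 of 7), the activators -1.21 (3 of 5), the alpha ring -0.95 (3 of 7) and the base ATPases -0.84 (2 of 6), the last counts being near the share of all genes. The non-ATPase genes here include those of the assembly chaperones Psmd5 and Psmd9, and the activators include Psme2b-ps. The inducible, thymic and testis subunits had -0.34 (-0.80 to 0.12), with 2 of 5 lower. Their interval reached 0, unlike those of the other proteasome subgroups. Among the Eif genes, the 13 genes of eIF3, the largest initiation complex, had a pooled log2 of -1.56 (-1.83 to -1.30) and 12 of 13 were lower, where 27.5% of all genes were. The eIF2 and eIF2B genes had -1.30 (6 of 7), the eIF1 genes -1.22 (2 of 3), the eIF2 alpha kinases -1.10 (3 of 4) and the eIF4 genes -0.95 (6 of 12). The Argonaute genes had -0.42 (-0.82 to -0.01) with 0 of 4 lower by 2-fold. Eif2c1, Eif2c3 and Eif2c4 lie close together on chromosome 4, so these are not 4 separate regions. At 12 h over no Dox the Argonaute genes had a log2 of 0.84 (0.26 to 1.44), while eIF3 had -0.17 (-0.52 to 0.18). Only these subgroups are given for that pair, a choice not fixed beforehand. The subgroups were compared by their intervals alone. Against the 6 h library the differences between subgroups were smaller. The 12 over 6 h log2 of eIF3 was -0.63 (-0.93 to -0.33), of the Argonautes -0.33 (-0.74 to 0.08), of eIF2 and eIF2B -0.67, of eIF1 -0.80, of the kinases -0.72 and of eIF4 -0.28. The proteasome order also changed, with -0.78 for the activators, -0.61 for the non-ATPases, -0.56 for the beta ring, -0.25 (-0.72 to 0.21) for the inducible, thymic and testis subunits, and -0.20 for both the alpha ring and the base ATPases. Lower by 2-fold at 12 over 6 h, where 10.6% of all genes were, were 3 of 13 non-ATPases, 2 of 7 beta ring genes, 2 of 5 activators, 2 of 5 inducible, thymic and testis subunits, and 0 of the alpha ring and base ATPases. In the Eif group they were 2 of 7 genes of eIF2 and eIF2B, 1 of 13 of eIF3, 1 of 3 of eIF1, 1 of 4 kinases, 1 of 5 of eIF5 and eIF6, and 0 of the eIF4 and Argonaute genes. The members were Psmd5, Psmd8, Psmd13, Psmb2, Psmb5, Psme4, Psme2b-ps, Psmb10, Psma8 and Psmc3ip, and Eif1b, Eif2a, Eif2ak4, Eif2b5, Eif2s1, Eif3h and Eif6, named after their values were seen. The lowest values were those of Psmd13 (7 against 21 reads) and Psmc3ip (5 against 15).

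**Figure D2:**
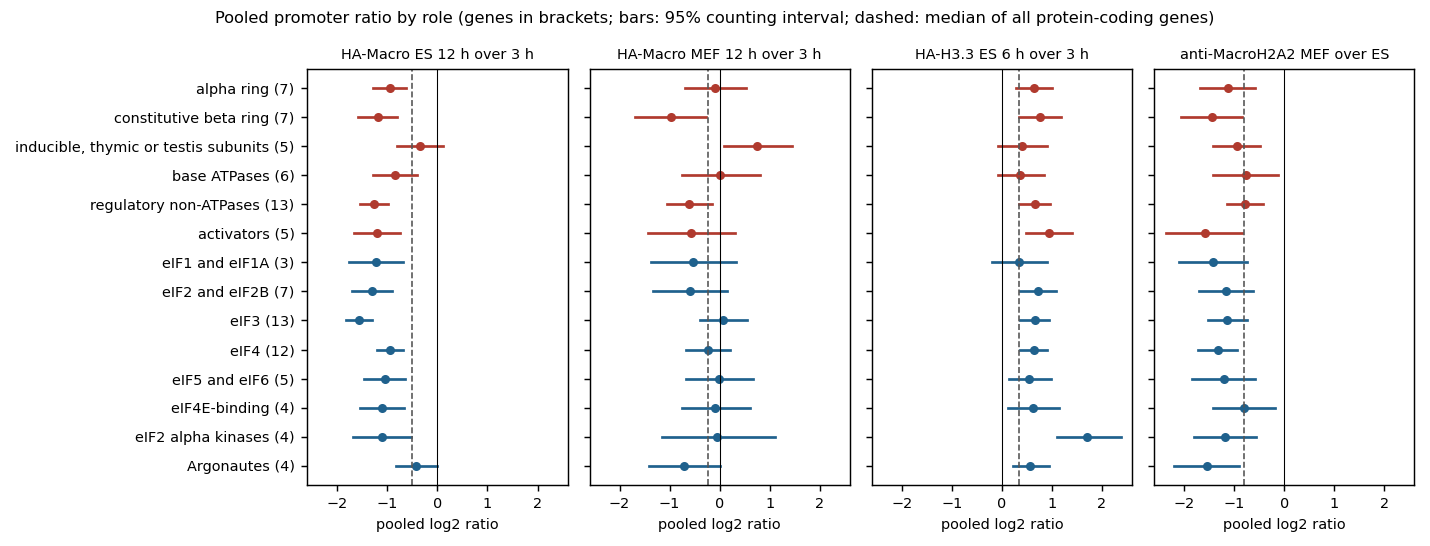
Pooled promoter log2 ratio of each subgroup of the proteasome and Eif genes in the library pairs compared, with bars giving the 95% counting interval and a dashed line at the median of all genes. In ES cells at 12 over 3 h the eIF3 genes lie at -1.56 and the Argonaute genes at -0.42.

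Members with the lowest and highest 12 over 3 h values among those with at least 20 reads were named by rule, 2 in each direction per group. Psmc3ip had 0.399 p.p.m. without Dox, 1.55 at 3 h, 0.847 at 6 h and 0.266 at 12 h (5 against 27 reads, log2 -2.55). Psmd13, a subunit of the proteasome lid, had 0.798, 1.61, 1.19 and 0.372 p.p.m. in the same order (7 against 28 reads, log2 -2.11). In both the 6 h level lay between the 3 h and 12 h levels. Eif3l, an accessory subunit of eIF3, had 0.479, 1.90, 0.565 and 0.319 p.p.m. (6 against 33 reads, log2 -2.57). Eif6, which keeps the large ribosomal subunit from joining too early, had 0.399, 1.49, 0.621 and 0.266 p.p.m. (5 against 26 reads, log2 -2.49). In Eif3l and Eif6 the 6 h level was much nearer to the 12 h than to the 3 h level. All of these members were picked by their 12 over 3 h values, so a 6 h level in between is only a description.

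At the other end, Psmb8, the inducible catalytic subunit encoded in the MHC region, had 0.479 p.p.m. without Dox, 0.517 at 3 h, 0.678 at 6 h and 0.744 at 12 h (14 against 9 reads, log2 0.52). Psmb11 had 1.20, 1.55, 1.64 and 1.43 p.p.m. (27 reads in each of the 3 and 12 h libraries, log2 -0.11). In neither was the 12 h level far below the 3 h level. Eif4e1b, an oocyte-type relative of the cap-binding protein, had 0.479, 0.632, 0.734 and 1.06 p.p.m. (20 against 11 reads, log2 0.75), and Eif4e3, another relative, 0.559, 1.03, 1.30 and 1.06 p.p.m. (20 against 18 reads, log2 0.04). The testis subunit Psma8 had 0.479, 0.460, 0.282 and 0.106 p.p.m., a low level that was lowest at 12 h.

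Around the TSS this signal was higher downstream than upstream. At 3 h in ES cells the 600 bp downstream of the TSS exceeded the 600 bp upstream by 1.10 (log2) in the proteasome genes and 0.98 in the Eif genes, against 0.74 over all genes. The highest 100 bp bin was centred 150 bp downstream of the TSS in the proteasome genes (log2 2.01 over the level 4 to 2 kb upstream) and 350 bp downstream in the Eif genes (2.03). This asymmetry was still 0.72 and 0.99 at 12 h, when the level within 600 bp differed from that upstream by only 0.14 and -0.02. Without Dox the asymmetry was 0.45 and 0.24, against 0.33 over all genes. The highest proteasome bin was then also centred 150 bp downstream (1.01). The part of this background in the asymmetry after Dox was not tested. From 2 to 4 kb downstream the 3 h signal stayed above the upstream level, by 0.59 in proteasome and 0.38 in Eif genes against 0.26 over all genes. It was at -0.28 and -0.42 against -0.03 at 6 h, and at -0.24 and -0.75 against -0.07 at 12 h.

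**Figure D3:**
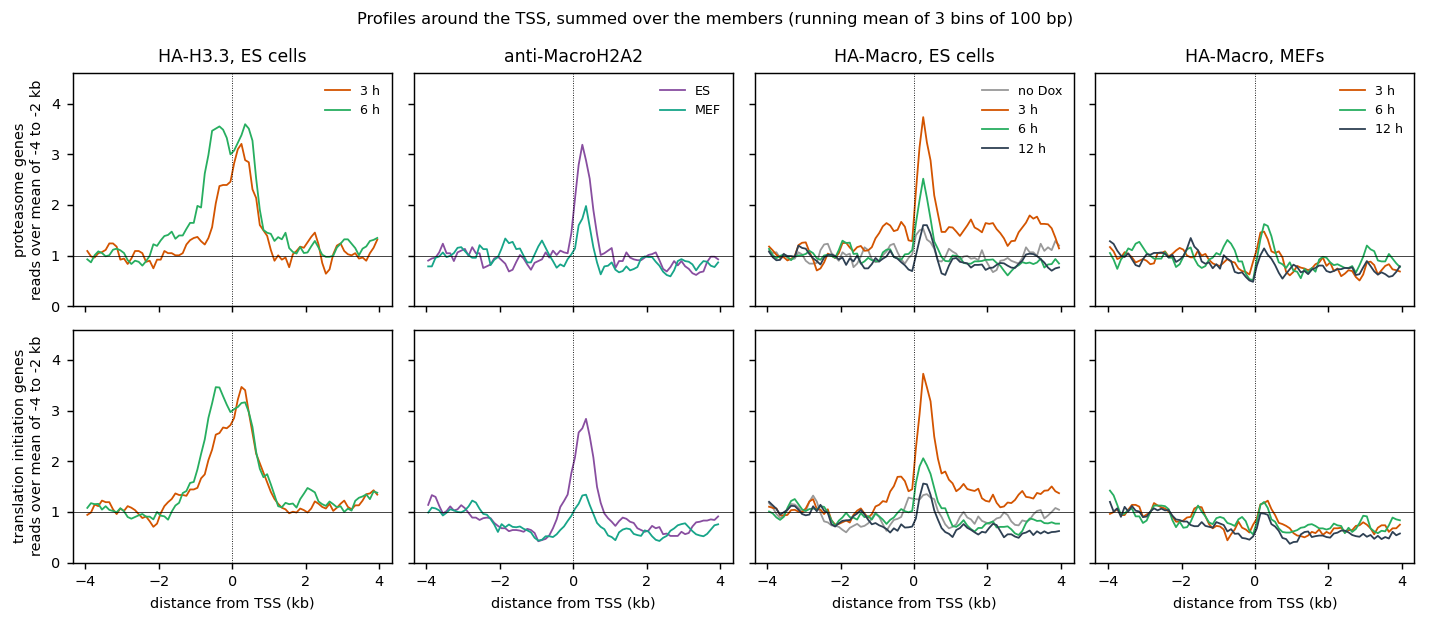
Pooled profiles of the proteasome and Eif genes over 4 kb on each side of the TSS in 100 bp bins, drawn as a running mean of 3 bins on a linear scale with the mean level 4 to 2 kb upstream set to 1, by library. HA-Macro in ES cells at 3 h peaks downstream of the TSS (log2 2.01 and 2.03 in the highest single bin), while HA-H3.3 is high on both sides of it. Intervals are 150 bp long for HA-Macro and 400 bp for HA-H3.3.

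Gene bodies, counted from 1 kb after the TSS to the gene's end in the genes long enough (43 of 44 and 54 of 55), were also highest at 3 h in ES cells. The proteasome genes had 420 p.p.b. per kb (1000 p.p.b. make 1 p.p.m.) without Dox, 738 at 3 h, 409 at 6 h and 360 at 12 h. The Eif genes had 396, 656, 446 and 401, and all genes 397, 480, 418 and 407. Both groups thus exceeded all genes at 3 h and were below them at 12 h. The 12 over 3 h log2 of the body was -1.03 (-1.08 to -0.99) for proteasome, -0.71 (-0.74 to -0.68) for Eif and -0.24 for all genes. Against the 6 h library it was much smaller, -0.18 (-0.23 to -0.13), -0.15 (-0.19 to -0.12) and -0.04. These pooled values are weighted by length, and Eif4e3 alone gives 408 of the 1974 kb of Eif gene bodies, with 359, 378, 477 and 488 p.p.b. per kb without Dox and at 3, 6 and 12 h. Without it, a choice made after its value was seen, the Eif genes had a 12 over 3 h log2 of -0.95 (-0.98 to -0.91). The medians over genes in the same order of libraries were 430, 746, 439 and 414 p.p.b. per kb for proteasome, 418, 828, 471 and 404 for Eif and 412, 566, 451 and 434 for all genes. In some members the body was higher at 12 than at 3 h, namely Psmb8 (715 at 3 h and 1068 at 12 h), Psmb9 (517 and 723), Psmb11 (407 and 801), Eif2c4 (315 and 450), Eif4e1b (531 and 736) and Eif4e3. Several held few reads, with 34 and 55 in Psmb8, 43 and 65 in Psmb9, 23 and 49 in Psmb11 and 32 and 48 in Eif4e1b. Psmb8 and Psmb9 lie close together. These members were named after their values were seen. The share of all genes with a higher body at 12 h was not counted.

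In MEFs the tagged MacroH2A2 was low at these promoters at all times and differed little between them. Proteasome promoters had a mean of 0.466 p.p.m. (0.408 to 0.530) at 3 h, 0.467 (0.408 to 0.533) at 6 h and 0.385 (0.346 to 0.428) at 12 h, and Eif promoters 0.490 (0.437 to 0.549), 0.489 (0.435 to 0.548) and 0.421 (0.384 to 0.461). The 12 over 3 h log2 was -0.27 (-0.52 to -0.03) and -0.22 (-0.43 to -0.01). The median of all genes was -0.23, which is of single genes with 1 read added and not the same measure. Averaged over all genes of the profile, the level within 600 bp went from 51.8 to 47.2 p.p.b. per 100 bp bin. It went from 38.8 to 32.1 in proteasome and from 40.9 to 35.1 in Eif genes. By the 2-fold rule 9 proteasome and 6 Eif promoters were lower, where 14.8% of all genes were, and 1 and 2 were higher, where 5.25% of all genes were. Only 6 of 44 and 12 of 55 members had at least 20 reads over both libraries, and of those 0 passed 2-fold in either direction, where 2.91% of all genes with as many reads were higher and 4.62% lower, so at this depth the counts of single members carry little. The members that were higher were Psmb10 (10 against 2 reads), Eif3k and Eif3l (7 against 1 each), named after their values were seen. At 12 over 6 h the pooled log2 was -0.28 and -0.21. By the 2-fold rule 12 proteasome and 10 Eif promoters were then lower, where 13.0% of all genes were, and 3 and 4 were higher, where 5.27% of all genes were. The members higher at 12 over 6 h, named after their values were seen, were Psma2, Psmb7 and Psmc4 (5, 4 and 6 against 0 reads), Eif2a, Eif3c and Eif3h (12, 12 and 11 against 2 reads) and Eif3l (7 against 0).

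Subgroups in MEFs lay on both sides of 0 with wide intervals. Only the constitutive beta ring and the inducible, thymic and testis subunits are given here, a choice not fixed beforehand. At 12 over 3 h the intervals of both exclude 0, so they do not stand for the subgroups left out. The constitutive beta ring had -0.98 (-1.69 to -0.28, 35 against 38 reads) at 12 over 3 h and -0.79 (-1.52 to -0.05, 35 against 32 reads) at 12 over 6 h. The inducible, thymic and testis subunits had 0.74 (0.08 to 1.44, 79 against 26 reads), of which Psmb11 gave 38 and 14 reads. Against the 6 h library they had 0.14 (-0.43 to 0.74, 79 against 38 reads), an interval that includes 0. Named by the same rule among the members with at least 20 reads, Psmb4 and Psmd1 had -0.74 and -0.73 and Psmd6 and Psmb11 0.81 and 0.57, while Eif2c1 and Eif1a had -0.99 and -0.74 and Eif5 and Eif4ebp2 0.90 and 0.85. The intervals of all 8 include 0. Gene bodies gave 0.00 and 0.02.

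HA-H3.3 in ES cells was abundant at the same promoters and higher at 6 than at 3 h. The mean level was 1.70 p.p.m. (1.55 to 1.86) at 3 h and 2.66 (2.51 to 2.81) at 6 h for proteasome promoters, and 2.03 (1.88 to 2.18) and 3.21 (3.07 to 3.36) for Eif promoters. The 6 over 3 h log2 was 0.64 (0.49 to 0.80) and 0.66 (0.54 to 0.79), and the median over all genes was 0.35. That median is of single genes with 1 read added and is not the same measure as the pooled values. Averaged over the 20629 genes of the all-gene profile, the level within 600 bp went from 123 to 187 p.p.b. per 100 bp bin. It went from 142 to 221 in proteasome and from 169 to 268 in Eif genes, steps of similar relative size. By the 2-fold rule 8 of 44 and 10 of 55 members were higher, where 16.6% of all genes were, and 1 and 0 were lower, where 8.87% of all genes were. The share of members that were higher by 2-fold was thus near that of all genes. At least 20 reads over both libraries were found at 42 and 52 members. Across members the order was largely kept, with a Spearman correlation of 6 h with 3 h levels of 0.61 over 44 and 0.69 over 55 genes. Genes are not independent replicates, and sequence composition and mappability are shared by both libraries.

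The highest HA-H3.3 levels at 6 h were those of Psme4, the large single-chain activator (3.24 p.p.m. at 3 h and 6.16 at 6 h), and of Psma7, an alpha ring subunit (2.78 and 6.06). In the Eif group they were those of Eif2c3, an Argonaute (4.16 and 9.79), and Eif2b5, the catalytic subunit of the eIF2 exchange factor (17 reads at 3 h and 75 at 6 h). The lowest were Psme2b-ps (3 h 0.463, 6 h 0.0933, a single read at 6 h) and Psma2 (11 reads, 1.03 p.p.m. at 6 h), Eif4g1 (8 reads, 0.746) and Eif2b1 (9 reads, 0.839). The TSS is the outer annotated gene end, and for Eif4g1 the CpG ratio there was 0.30. Whether that start is the one used in these cells was not tested. Psme2b-ps was the member lower by 2-fold.

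The 4 eIF2 alpha kinase genes were each higher by 2-fold or more at 6 h, with a pooled log2 of 1.70 (1.09 to 2.37, 140 against 26 reads), where 16.6% of all genes were higher. Eif2ak3, the kinase of the endoplasmic reticulum (PERK), had 0.463 p.p.m. at 3 h and 3.08 at 6 h (33 against 3 reads, log2 2.73, 1.06 to 5.08). Eif2ak1, the heme-regulated kinase, went from 0.771 to 2.80, Eif2ak2, the double-stranded RNA kinase, from 1.23 to 3.08, and Eif2ak4, the amino acid sensor, from 1.54 to 4.10. These are 4 genes of 1 library pair, and they were singled out after their values were seen. Eif5a, which helps ribosomes through proline stretches, had 1.85 and 6.62 (71 against 12 reads, log2 1.84, 0.95 to 2.86). In the proteasome group the highest ratios of 6 over 3 h were those of Psmb6, a catalytic subunit (0.925 and 2.80, log2 1.60, 0.31 to 3.15), and Psmd8, a lid subunit (0.771 and 2.24, log2 1.54, 0.12 to 3.28). At the low end, among members with at least 20 reads, stood Psma2 with -0.85 and Psmb11 with -0.18 (2.00 and 1.77 p.p.m.), and Eif5 with -0.73 and Eif2s2 with -0.43.

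Unlike HA-Macro, HA-H3.3 lay on both sides of the TSS. Its intervals are 400 bp long and those of HA-Macro 150 bp, and the part of this in the contrast was not tested. The downstream 600 bp exceeded the upstream 600 bp by 0.43 (log2) at 3 h and by -0.02 at 6 h in proteasome genes and by 0.26 and -0.12 in Eif genes, against 0.38 and 0.22 over all genes. The highest bin of the 6 h profile was centred 250 bp upstream of the TSS in the proteasome genes and 350 bp upstream in the Eif genes, where it was 250 bp downstream over all genes. In gene bodies the 6 over 3 h log2 was 0.25 and 0.35, against 0.08 over all genes. The highest HA-H3.3 bodies at 6 h among the members were those of Eif1, the start codon scanning factor (509 p.p.b. per kb at 3 h and 3617 at 6 h), and of the RNA helicase genes Eif4a2 (1517 and 3474) and Eif4a1 (1271 and 3118). The Eif1 body is only 1.21 kb long and held 4 reads at 3 h and 47 at 6 h.

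The antibody against MacroH2A2 itself, without regard to the tag, gave lower levels at these promoters in MEFs than in ES cells. Proteasome promoters had 1.14 p.p.m. (1.04 to 1.26) in ES cells and 0.566 (0.510 to 0.627) in MEFs, a log2 of -1.01 (-1.22 to -0.81). Eif promoters had 1.32 (1.22 to 1.43) and 0.580 (0.529 to 0.634), a log2 of -1.19 (-1.37 to -1.02). All genes had a median log2 of -0.80, and the 2-fold rule gave 21 of 44 and 34 of 55 members lower, where 37.2% of all genes were, and 0 in both groups higher, where 3.14% of all genes were. At least 20 reads were found at 15 of 44 and 29 of 55 members, of which 6 of 15 and 23 of 29 were lower, where 44.7% of all genes with as many reads were. Under this minimum the proteasome share was thus not above that of all genes. Against the median of all genes the members were not uniformly high: 45.5% of proteasome and 58.2% of Eif promoters lay above it in ES cells, and 31.8% and 36.4% in MEFs. Across members, MEF and ES levels had a Spearman correlation of 0.51 (44 genes) and 0.46 (55 genes), a description with no test.

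Psmb11 stood highest in both cell types, with 3.75 p.p.m. in ES cells (32 reads) and 2.42 in MEFs (36 reads). Its neighbour Psmb5, the constitutive subunit that it replaces, whose TSS lies 7296 bp away, had 1.29 and 0.0671 (1 read). In HA-Macro MEFs Psmb11 had 1.24, 1.19 and 1.85 p.p.m. at 3, 6 and 12 h, and Psmb5 0.355, 0.551 and 0.195. The thymic gene was thus the higher of the pair in all of these libraries, and also in both HA-H3.3 libraries (2.00 and 1.77 against 0.771 and 1.21). It was also higher in HA-Macro ES cells without Dox (1.20 against 0.319 p.p.m.), and the part of background in these gaps was not tested. Psmb8 and Psmb9, which lie 9957 bp apart in the MHC region, had 2.11 p.p.m. each in ES cells and 0.470 and 1.28 in MEFs. The Psmb9 window holds the TSS of Tap1 on the opposite strand, 211 bp away, and the reads of both promoters cannot be told apart. Psma8 was below Psma7 in 10 libraries and equal to it, at 0.734 p.p.m., in HA-Macro MEFs at 6 h.

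**Figure D4:**
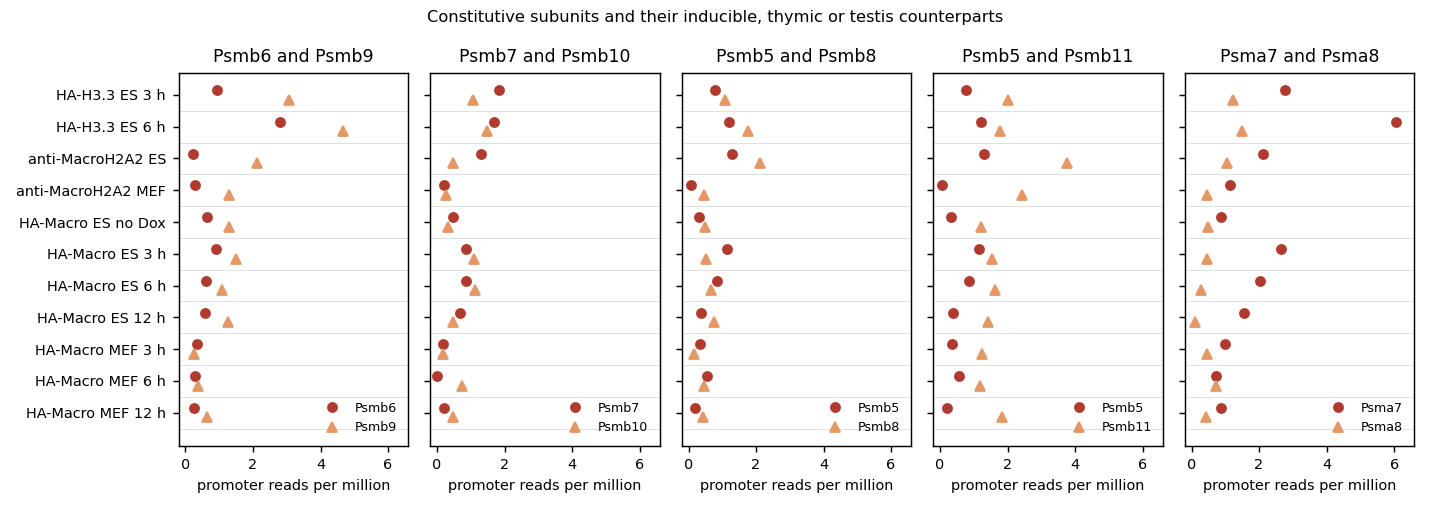
Promoter levels (p.p.m.) of the inducible, thymic and testis subunits (triangles) beside their constitutive counterparts (circles) in the 11 libraries. Psmb11 lies above Psmb5 in all 11 libraries, and in anti-MacroH2A2 MEFs the values are 2.42 and 0.0671.

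Among members with at least 20 reads over both libraries, those with the lowest MEF over ES values were Psmb8 (log2 -2.16, -3.67 to -0.84) and Psmb4 (-1.70), Eif4e3 (2.34 p.p.m. in ES cells and 0.269 in MEFs, 20 and 4 reads, -3.12, -5.13 to -1.55) and Eif3a, the scaffold of eIF3 (1.87 and 0.336, -2.48). Those with the highest values were Psmd12 (-0.12), Psmd1 (-0.22), Eif3b (0.936 and 1.14, log2 0.29) and Eif4ebp3 (-0.27). By subgroup, the activators had -1.58 (4 of 5 lower), the Argonautes -1.55 (4 of 4) and the beta ring -1.45 (3 of 7), where 37.2% of all genes were lower, and the non-ATPases -0.79 and base ATPases -0.77. The next highest ES level in the proteasome group was that of Psmd11 (2.34), the highest in the Eif group were those of Eif3i (2.93) and Eif1a (2.46), and the lowest those of Psmb6, Psmc4, Eif2d and Eif3e (0.234 each, 2 reads). In MEFs Psme2b-ps had 0 reads. In HA-Macro the MEF level was also below that of ES cells, with a log2 of -1.64 and -1.82 at 3 h and -0.86 and -0.87 at 12 h. At 6 h the level per 100 bp bin was 80.5 p.p.b. in ES cells and 38.9 in MEFs for proteasome genes. For Eif genes it was 90.2 and 40.7. Averaged over all genes of the profile, it was also lower in MEFs, with 83.0 and 51.8 at 3 h, 66.7 and 50.9 at 6 h and 55.2 and 47.2 at 12 h.

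**Figure D5:**
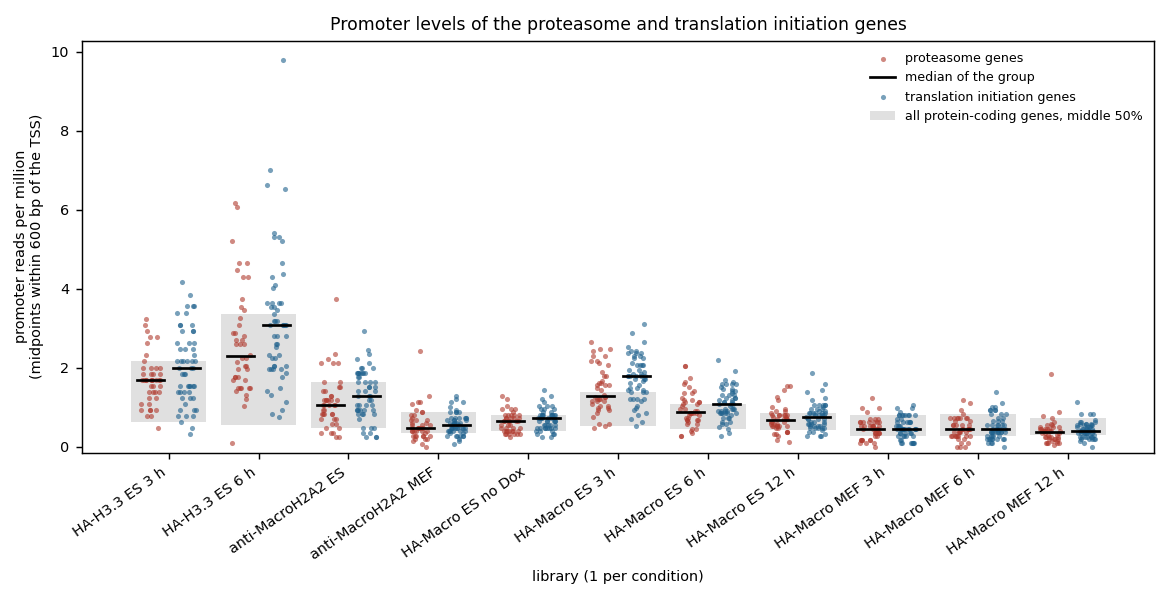
Promoter level of every member (p.p.m., within 600 bp of the TSS) in each of the 11 libraries, proteasome and Eif genes apart, with bars at the median of each group and grey boxes over the middle 50% of all genes. The members lie above the median of all genes in most HA-H3.3 and HA-Macro ES 3 h values (75.0% and 76.4% of proteasome and Eif genes in HA-H3.3 at 3 h, 86.4% and 90.9% in HA-Macro ES at 3 h), and mostly below it in the MEF libraries.

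Around the TSS the MacroH2A2 antibody likewise gave more signal downstream than upstream. In ES cells the downstream side exceeded the upstream side by 1.37 (log2) in proteasome and 1.21 in Eif genes, against 0.76 over all genes, and in MEFs by 0.91 and 0.74 against 0.54. The highest bin in ES cells was centred 350 bp downstream in both groups (1.74 and 1.54 over the upstream level). In gene bodies the MEF over ES log2 was -0.38 and -0.50, against -0.21 over all genes.

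Partner genes of both machines were measured in the same way. Of 13 genes of proteasome assembly, regulation and ubiquitin supply, such as the chaperone gene Pomp and the transcription factor gene Nfe2l1, 7 were lower by 2-fold at 12 over 3 h in ES cells, with a pooled log2 of -1.10, where 27.5% of all genes were, and 5 at 12 over 6 h (-0.58), where 10.6% were. With the MacroH2A2 antibody 10 were lower and 1 higher in MEFs against ES cells (-1.35), where 37.2% and 3.14% of all genes were. The gene that was higher was Usp14, a proteasome-bound deubiquitinase (0.117 p.p.m. or 1 read in ES cells and 0.403 or 6 reads in MEFs), named after its value was seen. With at least 20 reads over both libraries, 4 of 5 genes of this list were lower, where 44.7% of all genes with as many reads were. In HA-H3.3 the list had 0.57, with 2 higher and 1 lower, where 16.6% and 8.87% of all genes were, shares near those of the list. Of the 16 genes of translation elongation and termination 15 were found, and 9 of these were lower at 12 over 3 h in ES cells (-0.96), 5 at 12 over 6 h (-0.40, with 1 higher), 9 in MEFs against ES cells with the MacroH2A2 antibody (-1.10), and 0 passed 2-fold in HA-H3.3 (0.36). With at least 20 reads, 4 of 8 of them (50.0%) were lower with the MacroH2A2 antibody, near the 44.7% of all genes with as many reads. In HA-Macro MEFs at 12 over 3 h both lists were lower, with a pooled log2 of -0.65 and -0.50, and 5 and 4 genes were lower by 2-fold, where 14.8% of all genes were. Of these lists 1 and 3 genes had at least 20 reads there, and 0 of those passed 2-fold.

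Within the groups, levels followed CpG content only weakly. The Spearman correlation of the CpG ratio with the HA-Macro level at 3 h in ES cells was 0.14 over the 44 proteasome and 0.36 over the 55 Eif promoters, against 0.64 over all promoters, and at 6 h it was -0.01 and 0.28 against 0.46. For HA-H3.3 at 6 h it was 0.03 and -0.02 against 0.65. Cytosolic ribosomal protein promoters had 0.04, -0.23 and -0.01 in the same libraries, so low values were not particular to the groups described here. From the lower to the upper quartile, the CpG ratio ran from 0.58 to 0.85 in proteasome and from 0.68 to 0.97 in Eif promoters. Over all promoters it ran from 0.21 to 0.79, a wider range. The part that the narrower range has in the lower correlations was not tested. Promoters are not independent of each other and share base composition with the sequencing bias of a library, so these correlations are descriptions. The 12 over 3 h difference in ES cells had Spearman correlations of -0.05 and -0.08 with the HA-H3.3 level at 6 h. Another TSS on the opposite strand lay within 600 bp at 8 of 44 (18.2%) and 8 of 55 (14.5%) members, against 9.60% of all genes, and those windows hold the signal of both promoters.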

How the data were processed

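The deposited files hold no scores but positions: each line gives the start and end of 1 mapped read, extended by the authors toward its 3′ end (unit: other, interval positions). The submitters' processing notes name Bowtie 1.0 and mm9. Near-exact matches were accepted, and a read that matched several places was kept at a single, randomly drawn one. Reads of near-identical copies, such as Psme2 and Psme2b-ps, may therefore be split between loci. The methods give 1 extension for all libraries, whereas the deposited intervals are 150 bp long for HA-Macro and 400 bp long for both HA-H3.3 and the MacroH2A2 antibody, so levels were compared only within a kind of library. Shapes of profiles around the TSS were set side by side across kinds, and the part of interval length in them was not tested. Repeated intervals made up 3.27 to 6.00% of the HA-Macro and 0.462 to 0.693% of the other libraries and were kept.

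From these, interval midpoints were counted in Python 3.11.15 (numpy 2.4.6, scipy 1.17.1) and scaled to the intervals on chromosomes 1 to 19, X and Y. Genes were taken from GENCODE vM1, 1 entry per symbol (the longest, 137 of 21418 entries dropped), with the TSS at the outer annotated gene end. Pooled log2 ratios are ratios of summed reads, with exact conditional binomial intervals. Single members were also compared with 1 read added to each count, and 2-fold was the limit for calling a member higher or lower. Median promoter ratios over all genes are of single genes with 1 read added, so they are not the same measure as pooled ratios. The minimum of 20 reads over both libraries was used only where stated. Library size sets the precision, and intervals cover counting error only. Members named are drawn from a fixed list of subunits and factors, the 2 largest differences in each direction, group and library pair among members with at least 20 reads, and the 2 highest and 2 lowest levels in HA-H3.3 6 h and both anti-MacroH2A2 libraries. Groups came from the sample labels. The members and lists were chosen with earlier results of these data known. The counting and ratio steps were tested on simulated data. Promoter sequences were read from the mm9 genome.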

Additional observations from a re-analysis of the deposited data

How the results depend on the processing

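No paired analysis was possible because each condition has 1 library. The pooled promoter log2 ratios were recomputed with repeated intervals collapsed, with windows of 300 and 1000 bp on each side, with another scaling total, as the median of the members, without most members that are not subunits or factors, with the 6 h library in place of 3 h, and, chosen after seeing the data, without members that have another TSS within 600 bp. Left out as not subunits or factors were Psmc3ip, the Argonautes, the eIF2 alpha kinases, the Eif4ebp genes, Eif4enif1, Eif2a, Eif2d and Eif1ad. Psme2b-ps and the assembly chaperone genes Psmd5 and Psmd9 were kept. None of the recomputed ratios changed direction, 58 stayed within the counting interval of the value reported, and 2 moved: with 6 h in place of 3 h, HA-Macro in ES cells had -0.47 for proteasome and -0.49 for Eif genes. Of the counts of members past 2-fold, 27 stayed within 1.5 times and 13 moved. With 6 h in place of 3 h, chosen for the counts after seeing the data, the members lower in HA-Macro ES cells went from 24 to 10 (proteasome) and from 37 to 7 (Eif), and the Eif genes higher from 0 to 1. Between the same pairs the share of all genes that was lower also went from 27.5% to 10.6%, and that higher from 5.10% to 3.43%. In HA-Macro MEFs the proteasome genes higher went from 1 to 3, and the Eif genes lower from 6 to 10 and higher from 2 to 4, where 13.0% of all genes were lower and 5.27% higher at 12 over 6 h. With at least 20 reads over both libraries, the proteasome genes lower in HA-Macro MEFs went from 9 to 0 and those higher from 1 to 0, also 0 with repeats collapsed. Under the same minimum the Eif genes lower there went from 6 to 0 and higher from 2 to 0, the proteasome genes lower in HA-H3.3 from 1 to 0, and those lower in anti-MacroH2A2 MEFs against ES cells from 21 of 44 to 6 of 15. Over all genes the shares lower went from 14.8% to 4.62% in HA-Macro MEFs, from 8.87% to 0.499% in HA-H3.3 and from 37.2% to 44.7% in anti-MacroH2A2. The share higher in HA-Macro MEFs went from 5.25% to 2.91%. Fewer members enter the counts under this minimum. The gene body log2 of 12 over 3 h in HA-Macro ES cells went, with 6 h in place of 3 h, from -1.03 to -0.18 (proteasome) and from -0.71 to -0.15 (Eif), and without Eif4e3 to -0.95 (Eif), both chosen after seeing the data. Read number limits single members in the MEF libraries most.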
